A study of Mus musculus with 41 samples.

Results

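Vcam1 and 5 related genes of cell adhesion molecules, Icam1, Icam2, Mcam, Alcam and Ncam1, were followed through fetal mouse lung by taking the rows of these 6 symbols from each deposited count table of 24371 genes. All 6 were found in every table. Levels are CPM, counts scaled to the same total in every library, and errors are SD. The study set glucocorticoid exposure before birth against lung maturation. In the first set, pregnant mice of a mating between Twist2Cre;Rosa26mT/mG and Rosa26mT/mG animals were injected at E18.5 with 1 mg/kg dexamethasone, a synthetic glucocorticoid, or with saline. Lungs were pooled by genotype 2 hours later and tdTomato-/GFP+ mesenchyme was sorted, giving 4 dexamethasone and 2 saline pools. Cre expression driven from Twist2 decides which cells turn green, so these pools hold the cells of that lineage and not all mesenchyme. In the second set, E18.5 lung cells carrying CD106, the surface protein that Vcam1 encodes, were set against CD106- cells in 2 libraries each, beside 1 CD106+ library labelled with 1 mg/kg dexamethasone. In the third, wild type C57Bl6/J dams were injected at E17.5 with 2 mg/kg dexamethasone or saline, and 15 dexamethasone and 11 saline lung cells were profiled singly after 24 hours. For the RNA fractions the labels give no strain, no steps of the CD106 selection and no time of the dexamethasone injection. The column of the treated CD106+ library carries a code found in no label, and it was assigned because no other sample names its table. The 4 chromatin accessibility samples were not analysed here.

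All 6 encode membrane proteins of the immunoglobulin superfamily, which hold cells to each other or to passing leukocytes. VCAM1 binds the integrin of the Itga4 and Itgb1 chains, and ICAM1 and ICAM2 bind leukocyte integrins. ICAM2 is a constitutive endothelial protein, while ICAM1 is known for its induction by inflammatory signals through NF-kB. MCAM, or CD146, is found on endothelium, pericytes and smooth muscle. ALCAM, or CD166, binds itself and the lymphocyte receptor CD6. NCAM1 binds itself, and polysialic acid chains added to it by the enzymes encoded by St8sia2 and St8sia4 weaken that hold.

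The bulk libraries held 1670900 to 7133940 counts and the single cells 215623 to 1788000. The ribosomal RNA precursor Rn45s took 0.902 to 9.83% of the counts of a bulk library. Xist, a transcript of female cells, stood at 33133 and 20880 CPM in the saline pools and at 374, 11111, 12.6 and 6.6 CPM in the dexamethasone pools. The Y-linked gene Ddx3y stood at 1.20 and 0 CPM in the saline pools and at 74.4 to 174 CPM in every dexamethasone pool. Both genes separated the 2 groups without overlap. Against the labelled tissue, mesenchymal markers (Pdgfra, Tcf21, Col1a1 and 4 others) summed to 5840 to 8487 CPM in the 6 mesenchyme pools and epithelial markers to 2.13 to 175 CPM. In the CD106- libraries epithelial markers summed to 4428 and 5031 CPM, and in the untreated CD106+ libraries to 2079 and 3775 CPM beside 2648 and 4031 CPM of mesenchymal markers. No label says whether pools or fractions came from different litters, and the p-values therefore cover the spread of these libraries alone, which may be technical.

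The genes lie on 4 chromosomes of GRCm38. Vcam1 is at chr3:116110020-116129688, Icam2 at chr11:106377656-106388139 and Alcam at chr16:52248996-52453081. Icam1 (chr9:21015940-21028814), Mcam (chr9:44134658-44142727) and Ncam1 (chr9:49502129-49799393) share chromosome 9. Alcam overlaps 2 annotated long noncoding RNAs, Gm32597 and Gm41461, which are not rows of the count tables. Ncam1 overlaps Gm11149, which reached at most 9.05 CPM in a bulk library. The library kit does not mark strand and how reads of overlapping genes were assigned is not stated, so the values of Alcam and Ncam1 are uncertain to that extent.

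Each gene had its own order of levels over the 5 bulk groups. Vcam1 was measured at 302 and 805 CPM in the saline pools and at 509, 704, 476 and 561 CPM in the dexamethasone pools. The untreated CD106+ libraries held 551 and 687 CPM, the treated CD106+ library 268 CPM and the CD106- libraries 1.35 and 3.00 CPM. Mesenchyme and untreated CD106+ libraries overlapped throughout, while the treated CD106+ library lay below all of them. The CD106- libraries lay far below the rest, which is a check of the sort, since CD106 is the product of Vcam1, and no finding about the gene.

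Icam1 ran the other way, near 0 in sorted mesenchyme and high in CD106- cells. It stood at 4.79 and 2.88 CPM in the saline pools, at 2.37, 0.680, 5.40 and 3.39 CPM in the dexamethasone pools, and at 165 and 170 CPM in the CD106- libraries. The untreated CD106+ libraries held 74.6 and 92.5 CPM and the treated one 239 CPM, the highest of the 11 bulk libraries. Only the saline and dexamethasone mesenchyme groups overlapped.

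Icam2 was at or below 3.31 CPM, or 14 counts, in 10 of the 11 bulk libraries. The exception was the treated CD106+ library, with 23.5 CPM from 89 counts. The other groups overlapped or lay so low that their order rests on 1 to 14 counts a library.

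Mcam was highest in mesenchyme, at 287 and 203 CPM in the saline pools and at 189, 138, 181 and 155 CPM in the dexamethasone pools. It stood at 14.0 and 24.0 CPM in the CD106- libraries and at 19.7 and 19.1 CPM in the untreated CD106+ libraries, which overlapped. The treated CD106+ library held 198 CPM, within the range of the mesenchyme pools. The tables were made separately, so levels set across them carry that limit.

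Alcam was highest in CD106- cells, at 992 and 979 CPM, followed by the untreated CD106+ libraries at 521 and 396 CPM. The dexamethasone pools held 243, 342, 314 and 333 CPM, the treated CD106+ library 256 CPM and the saline pools 165 and 236 CPM. The treated CD106+ library lay inside the range of the dexamethasone pools.

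Ncam1 was highest in mesenchyme and lowest in CD106- cells. The saline pools held 159 and 290 CPM, the dexamethasone pools 93.3, 177, 126 and 83.3 CPM and the untreated CD106+ libraries 107 and 113 CPM. The dexamethasone pools overlapped with both of the others, while the saline pools lay above the untreated CD106+ libraries. The treated CD106+ library held 61.2 CPM and the CD106- libraries 10.8 and 14.6 CPM.

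**Figure D1:**
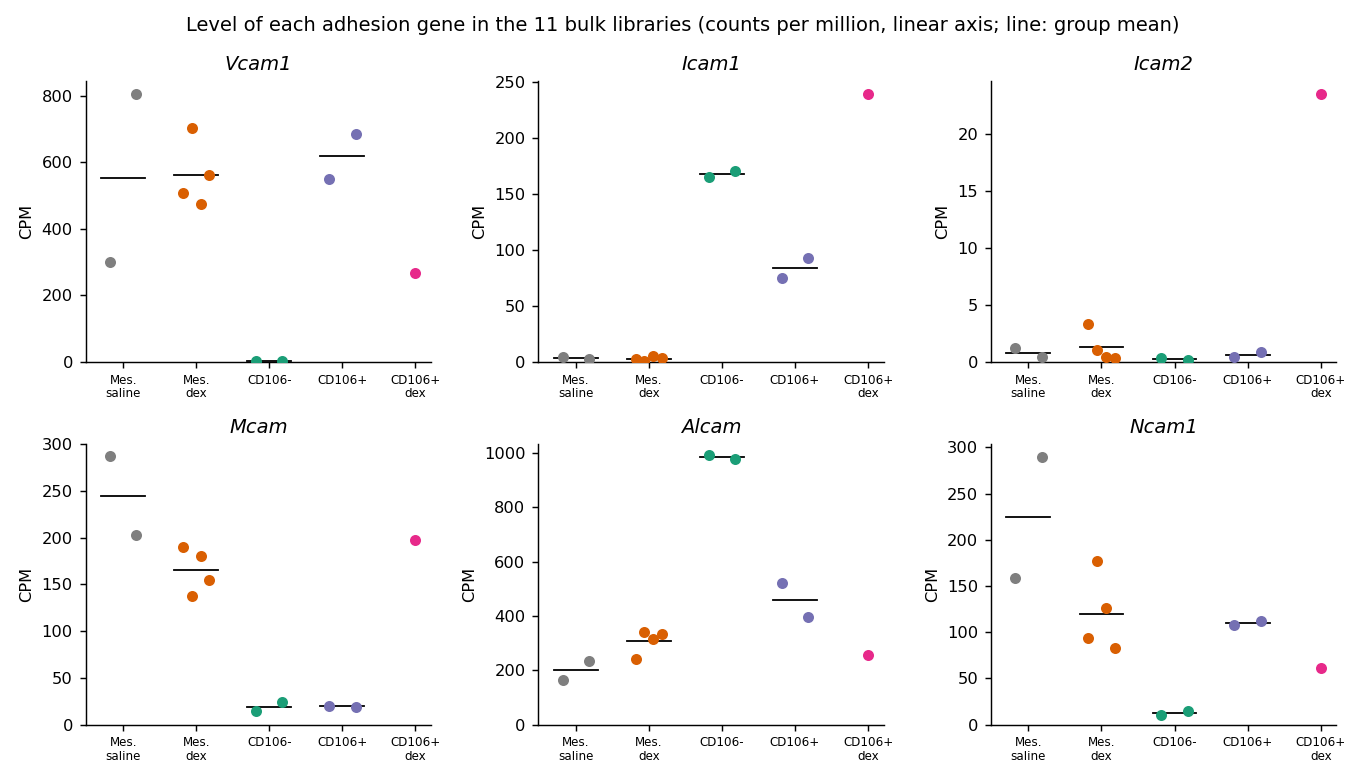
CPM (linear axis from 0) of the 6 genes in the 11 bulk libraries, with 1 point a library and a line at the mean of each group of 2 or more ("Mes." is sorted mesenchyme, "dex" dexamethasone). Icam1 and Alcam are highest or near highest in CD106- cells, Mcam and Ncam1 in saline mesenchyme, and Icam2 exceeds 3.31 CPM only in the treated CD106+ library.

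The sequence before the gene start is printed for Icam1, Alcam and Mcam, the only members found in the RefSeq promoter table (GRCm38.p6). Icam1 and Alcam both stood higher in CD106- than in CD106+ cells, and Icam1 and Mcam both higher in the treated than in the untreated CD106+ libraries. The 3 genes did not move together throughout. Pearson r of log2(CPM + 1) over the 11 bulk libraries was 0.63 for Icam1 with Alcam, -0.71 for Icam1 with Mcam and -0.87 for Mcam with Alcam. Each line gives the 250 bases before the RefSeq start, 5′ to 3′ along the gene. The windows are chr9:21015690-21015939 (plus strand) for Icam1, chr16:52453082-52453331 (minus strand) for Alcam and chr9:44134408-44134657 (plus strand) for Mcam, and capitals mark the only motif match.
Icam1: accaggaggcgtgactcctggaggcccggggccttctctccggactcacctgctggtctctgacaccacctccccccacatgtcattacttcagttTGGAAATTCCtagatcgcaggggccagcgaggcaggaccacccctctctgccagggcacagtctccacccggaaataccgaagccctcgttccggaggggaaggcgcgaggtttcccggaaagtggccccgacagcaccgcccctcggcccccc
Alcam: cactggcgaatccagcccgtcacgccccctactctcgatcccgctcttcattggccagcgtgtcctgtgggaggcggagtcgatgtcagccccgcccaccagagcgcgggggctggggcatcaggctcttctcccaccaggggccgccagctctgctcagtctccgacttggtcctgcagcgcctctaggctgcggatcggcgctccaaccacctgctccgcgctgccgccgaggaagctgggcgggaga
Mcam: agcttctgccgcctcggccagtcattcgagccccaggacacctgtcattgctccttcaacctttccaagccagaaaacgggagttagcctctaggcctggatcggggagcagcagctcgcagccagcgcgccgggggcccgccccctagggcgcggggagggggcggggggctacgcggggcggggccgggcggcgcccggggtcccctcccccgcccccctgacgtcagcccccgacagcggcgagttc

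The windows were rich in G and C, at 65.2% for Icam1, 69.2% for Alcam and 73.6% for Mcam, against a median of 52.4% over the 32851 windows of this length in the table. They held 15, 22 and 25 CG dinucleotides against a median of 6. Both strands were searched for TATAAA (found in 12.4% of all windows), the NF-kB decamer consensus (7.25%), the glucocorticoid receptor hexamer AGAACA (16.1%) and the full palindromic receptor site (0.00913%), which holds the hexamer. None of the 3 windows held any of these. The Icam1 window holds TGGAAATTCC on the plus strand, starting 154 bases before the gene start, which differs from the NF-kB decamer consensus in its first base and is well known from the Icam1 promoter. The consensus with T as its first base was added to the search after the window was seen, and 8.97% of all windows hold it. A match of letters is a description and shows no binding.

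At 2 hours after dexamethasone, all 5 tested members of the family fell short of the threshold in sorted mesenchyme. The comparison asks which genes respond soon after exposure. Of 11356 genes tested by edgeR, a count model fitted over all genes, 2.69% changed at an adjusted p under 0.05, 1.95% rising and 0.740% falling, and 0 of the 5 members did. At an unadjusted p under 0.05 stood 3 of the 5, Alcam, Ncam1 and Mcam, beside 13.8% of all genes. DESeq2 and limma-voom also called 0 of the members. Icam2 was too low to test.

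Alcam lay higher in all 4 dexamethasone pools than in either saline pool, as 11.9% of all genes did. It was the only 1 of the 5 members whose groups did not overlap on scaled library sizes, against 23.2% of all genes in either direction. Its level on library sizes scaled by TMM, which evens out differences in composition, was 314 ± 46.8 CPM with dexamethasone and 195 ± 37.4 CPM with saline (n = 4 and 2, a log2 fold change of 0.69, 95% interval 0.20 to 1.18, edgeR adjusted p = 0.146). Ncam1 held 122 ± 41.9 and 217 ± 78.2 CPM (log2 fold change -0.83, 95% interval -1.46 to -0.21, edgeR adjusted p = 0.170), with overlapping groups. Mcam held 169 ± 23.6 and 241 ± 72.0 CPM (log2 fold change -0.51, 95% interval -1.01 to -0.011, edgeR adjusted p = 0.349). The Mcam groups did not overlap as shares of the library total and did overlap on scaled library sizes.

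Vcam1 differed little on average between the pools, with a log2 fold change of 0.11 whose 95% interval ran from -0.52 to 0.74 (edgeR adjusted p = 0.93). The 2 saline pools differed from each other by more than any dexamethasone pool did from another, and without saline pool 1 the value was -0.39 (edgeR adjusted p = 0.66). For Icam1 the interval of -2.53 to 1.89 around -0.32 was too wide to read at its few counts. Some summed cell type markers did not overlap between the same pools, as 23.2% of single genes did not on scaled library sizes. In edgeR 0 of 5 smooth muscle, 0 of 3 chondrocyte, 0 of 4 cardiac muscle and 0 of 5 mesothelial markers passed. Of 6 tested mesenchymal markers 1 passed, Meox2, which was lower (log2 fold change -1.48, edgeR adjusted p = 0.0027). Without overlap on scaled library sizes, 2 of the 6 lay higher with dexamethasone and 3 lower. Their list summed to 7227 and 8487 CPM in the saline pools against 5840 to 6903 CPM. Msln, a mesothelial marker, lay higher in every dexamethasone pool on scaled library sizes (log2 fold change 2.34), against the sum of its list. Smooth muscle markers summed to 1606 and 1910 CPM in the saline pools against 1021 to 1088 CPM, chondrocyte markers to 470 and 1241 CPM against 7.58 to 303 CPM, cardiac muscle markers to 323 and 371 CPM against 152 to 273 CPM and mesothelial markers to 53.9 and 58.4 CPM against 31.0 to 41.1 CPM. Pericyte markers overlapped, at 864 and 1199 CPM against 969 to 1342 CPM, as did endothelial markers, at 32.5 and 102 CPM against 31.5 to 141 CPM. The part of these cells in the values of Mcam, Alcam and Ncam1 was not tested, the sex of the pools and the treatment cannot be told apart, and in bulk samples fewer cells of a type and less RNA per cell cannot be told apart.

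Among the partners of the family, 1 receptor gene fell and 1 anchor gene rose. Itga4, the alpha chain of the VCAM1 receptor, stood at 432 and 250 CPM in the saline pools and at 156, 166, 201 and 134 CPM in the dexamethasone pools, without overlap. Itga4 fell by 1.01 on the log2 scale (168 ± 27.0 against 337 ± 145 CPM, n = 4 and 2, SE 0.25, edgeR adjusted p = 0.0386). That call was lost in 4 of 6 fits that left out a pool, among them the fit without saline pool 1 (log2 fold change -0.48, edgeR adjusted p = 0.57), with Xist as a covariate (0.26) and with limma-voom (0.057). Itgb1, the beta chain of the same receptor, did not pass (log2 fold change 0.25, edgeR adjusted p = 0.68).

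Ezr encodes ezrin, which ties membrane adhesion proteins such as ICAM1 and ICAM2 to actin. It stood at 14.4 and 21.0 CPM in the saline pools and at 98.5, 91.1, 82.0 and 78.4 CPM in the dexamethasone pools. Ezr rose by 2.36 on the log2 scale (89.2 ± 8.66 against 17.2 ± 3.57 CPM, SE 0.32, edgeR adjusted p = 3.3e-04), and it passed in 6 of 6 fits that left out a pool. St8sia2, of the polysialic acid pathway, stood at 53.3 and 93.4 CPM against 30.3, 41.8, 17.6 and 14.3 CPM without overlap, and missed the threshold (log2 fold change -1.42, edgeR adjusted p = 0.063).

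Few genes of the lists around the family passed at 2 hours. Of the 8 integrin receptor genes 4 were tested, with 0 rising, 1 falling and a median log2 fold change of -0.49, and of 9 genes for membrane anchors, shedding and polysialic acid 8 were tested, with 1 rising, 0 falling and a median of 0.35. In edgeR's test 0 of 20 other immunoglobulin-type adhesion genes (median 0.12), 0 of 8 cadherins (median -0.20) and 0 of 2 selectin ligand genes passed, and 3, 0 and 0 of them reached an unadjusted p under 0.05. So did 1 of the 4 integrin receptor genes and 3 of the 8 genes for anchors, shedding and polysialic acid, beside 13.8% of all genes. The median over all genes tested was -0.012.

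CD106+ and CD106- cells differed in 3 members other than Vcam1. Of 12364 genes tested by edgeR, 10.0% changed, 6.67% higher and 3.35% lower in CD106+ cells. Counting Vcam1, whose product defined the sort, 4 of 5 tested members passed, 2 in each direction, and Icam2 was too low to test. The same 4 reached an unadjusted p under 0.05, beside 19.8% of all genes, and their groups did not overlap, beside 47.6%. Vcam1 itself differed by 8.06 on the log2 scale.

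Ncam1 was higher in both CD106+ libraries, with 109 ± 4.46 CPM on scaled library sizes beside 13.0 ± 3.30 CPM in CD106- cells (n = 2 and 2, a log2 fold change of 3.06 with SE 0.32, 95% interval 2.40 to 3.72, edgeR adjusted p = 2.0e-07). It passed in 4 of 4 fits that left out a library. Both enzymes that add polysialic acid to NCAM1 were higher with it. St8sia2 held 73.6 and 77.1 CPM against 19.4 and 14.0 CPM (a log2 fold change of 2.14 with SE 0.33, edgeR adjusted p = 4.5e-05), and St8sia4 at 23.1 and 20.5 CPM against 6.92 and 3.00 CPM (a log2 fold change of 2.11 with SE 0.51, edgeR adjusted p = 0.0070). The St8sia4 call was lost without CD106- library 2 (edgeR adjusted p = 0.22).

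Icam1 and Alcam were lower in CD106+ cells. Icam1 held 82.2 ± 6.34 CPM in CD106+ and 171 ± 10.3 CPM in CD106- cells (n = 2 and 2, a log2 fold change of -1.05 with SE 0.27, 95% interval -1.60 to -0.50, edgeR adjusted p = 0.0096). Alcam held 457 ± 121 and 1003 ± 30.1 CPM (a log2 fold change of -1.13 with SE 0.32, 95% interval -1.79 to -0.48, edgeR adjusted p = 0.021). Neither gene's groups overlapped, as was so for 22.9% of all genes in this direction. Without CD106- library 1 or 2 the adjusted p rose to 0.12 and 0.20 for Icam1 and to 0.28 and 0.32 for Alcam. Mcam did not pass (log2 fold change -0.028, 95% interval -0.89 to 0.83, edgeR adjusted p = 0.98), an interval that leaves room for a change of up to 0.89 in size.

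**Figure D2:**
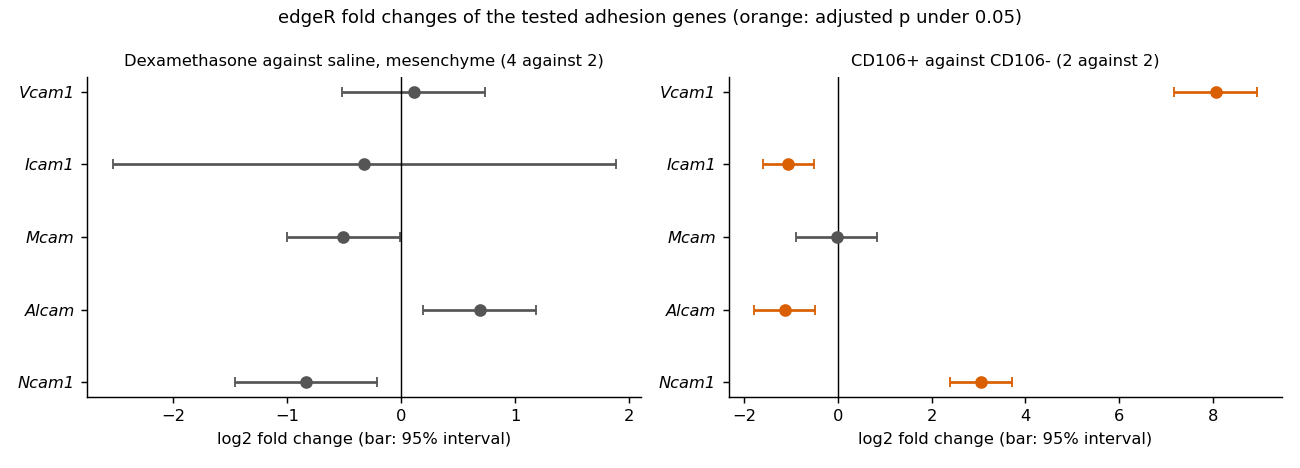
Log2 fold changes of the tested genes by edgeR, with bars for the 95% interval and orange for an adjusted p under 0.05, in mesenchyme (left, 4 dexamethasone against 2 saline pools) and between CD106 fractions (right, 2 against 2 libraries). The 5 values in mesenchyme are all grey, while in the fractions Ncam1 at 3.06 and Vcam1 at 8.06 lie right of 0 and Icam1 at -1.05 and Alcam at -1.13 left of it.

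Other adhesion genes were split between the fractions too. Of 19 tested immunoglobulin-type genes 5 were higher and 4 lower in CD106+ cells, with a median log2 fold change of -0.27 beside 0.046 over all genes. Nrcam, a neuronal adhesion molecule, was higher by 3.74, Pecam1, the endothelial adhesion molecule CD31, by 2.99, and the guidance receptor gene Robo1 by 1.43 on the log2 scale (edgeR adjusted p = 5.5e-06, 0.0015 and 0.0024). L1cam, also a neuronal adhesion molecule, had a log2 fold change of -1.48 (edgeR adjusted p = 0.0050). Without CD106- library 1 the calls of Robo1 and L1cam were lost (edgeR adjusted p = 0.35 and 0.11), and without CD106- library 2 that of Pecam1 (0.062).

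Of 6 tested cadherins 3 were higher and 2 lower in CD106+ cells, with a median of 0.61. Cdh11, a cadherin of mesenchyme, was higher by 3.81 on the log2 scale and Cdh5, that of endothelium, by 3.61 (edgeR adjusted p = 1.8e-07 and 2.7e-06). The epithelial cadherin genes Cdh1 and Cdh3 had log2 fold changes of -1.12 and -1.04 (edgeR adjusted p = 0.024 and 0.023), and each call was lost without CD106- library 1 (0.25 and 0.41) or 2 (0.48 and 0.11). Of the selectin ligand genes Cd34 was higher by 3.08, and Podxl had a log2 fold change of -1.38 (edgeR adjusted p = 1.3e-04 and 0.0012). Of the 9 genes for anchors, shedding and polysialic acid 2 were higher and 1, Ezr, lower (log2 fold change -1.15, edgeR adjusted p = 0.0056, lost without CD106- library 1 or 2 at 0.17 and 0.089). Of 3 integrin receptor genes that edgeR tested 0 passed, and 0 reached an unadjusted p under 0.05.

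Several marker lists moved along the same divide. In CD106+ cells 4 of 7 tested epithelial markers were lower, 5 of 6 mesenchymal markers higher and 5 of 7 endothelial markers higher. Mesenchymal markers summed to 2648 and 4031 CPM against 549 and 834 CPM, and endothelial markers to a mean of 109 CPM against 16.1 CPM. Cardiac muscle markers overlapped, at 954 and 68.3 CPM in CD106+ libraries 1 and 2 against 88.8 and 22.2 CPM. The untreated CD106+ libraries thus differed widely from each other in that list. The part of this makeup in the values of Ncam1, Icam1 and Alcam was not tested.

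**Figure D3:**
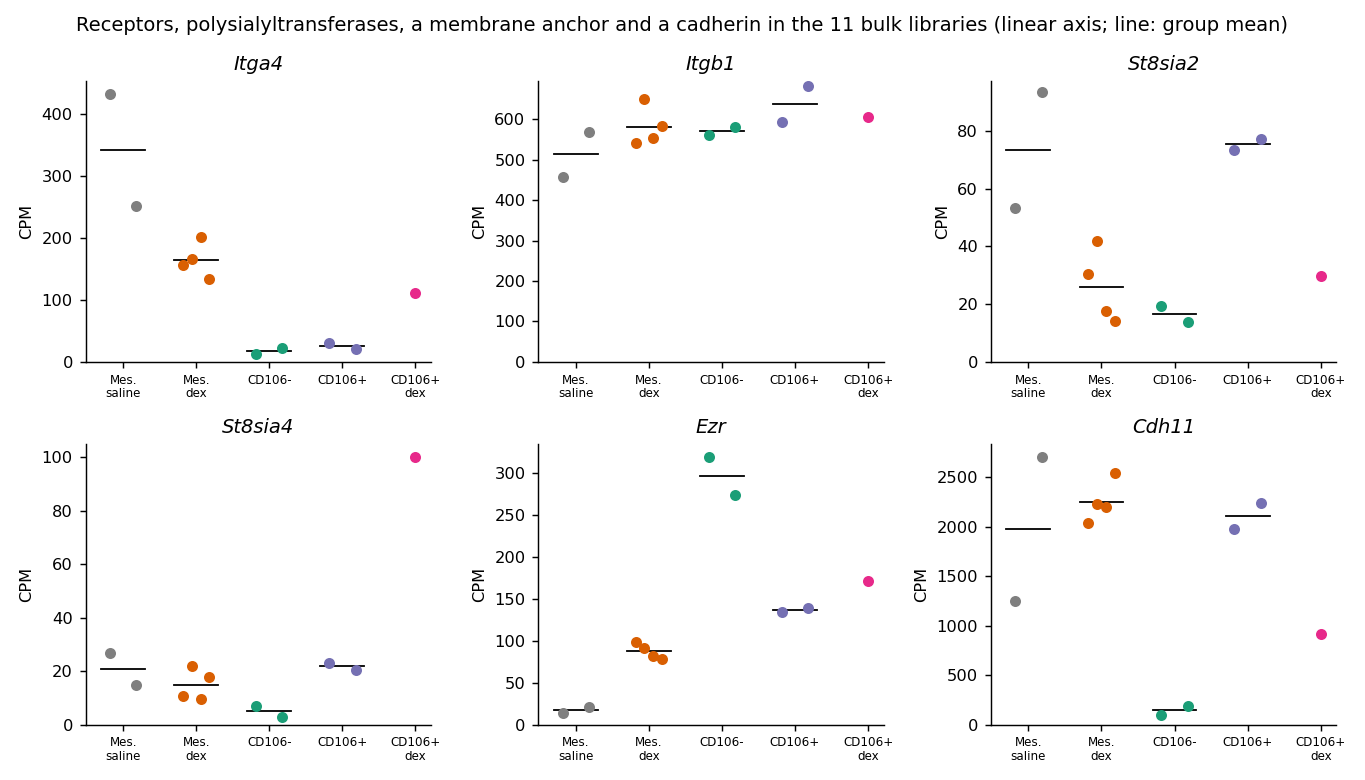
CPM (linear axis from 0) of 6 partner genes in the 11 bulk libraries, with 1 point a library and a line at the group mean. Itga4 lies lower and Ezr higher in every dexamethasone than in every saline mesenchyme pool, and St8sia2, St8sia4 and Cdh11 lie higher in both untreated CD106+ than in both CD106- libraries.

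The CD106+ library from dexamethasone treatment was 1 library in a table of its own, so it was set against the 2 untreated CD106+ libraries with no test. Ratios are log2 of CPM plus 1. Of 9792 genes at 10 CPM or more, 29.6% lay past 2-fold, 11.9% higher and 17.7% lower, and 79.1% lay outside the range of the untreated libraries. Of the 6 members, 4 lay past 2-fold and 6 lay outside that range, 3 above it (as 31.3% of all genes did) and 3 below it (47.8%).

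Icam2, Mcam and Icam1 were higher in the treated library. Icam2 stood at 23.5 CPM against 0.401 and 0.841 CPM (89 counts against 2 and 6, log2 ratio 3.92), a size that shrinks to 2.34 with a pseudocount of 5 because the untreated level is so low. Mcam stood at 198 CPM against 19.7 and 19.1 CPM (log2 ratio 3.29, or 9.76-fold) and Icam1 at 239 against 74.6 and 92.5 CPM (log2 ratio 1.50, or 2.84-fold).

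Vcam1, Alcam and Ncam1 were lower there. Vcam1 stood at 268 CPM against 551 and 687 CPM (log2 ratio -1.21, or 2.31-fold lower). Alcam had a log2 ratio of -0.84 and Ncam1 of -0.83, both inside 2-fold, although Alcam passed it against untreated library 1 alone (-1.02).

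Endothelial markers were also higher in this library. They summed to 2357 CPM against 122 and 96.3 CPM, and 7 of 7 that reached 10 CPM lay past 2-fold higher. Pecam1 stood at 508 CPM against 22.1 and 16.54 CPM and Cdh5 at 1043 against 52.3 and 35.0 CPM. Immune markers summed to 77.0 CPM against 3.81 and 12.5 CPM, and epithelial markers to 1193 against 2079 and 3775 CPM. The part of these cells in the values of the 6 genes was not tested.

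Set over Pecam1, a ratio of counts that is compared only between libraries, Icam2 stood at 0.0462 in the treated library and at 0.0182 and 0.0508 in the untreated ones, where it rests on 2 and 6 counts. The ratio of Mcam to Pecam1 was 0.389 against 0.891 and 1.15, and that of Icam1 to Pecam1 was 0.470 against 3.38 and 5.59. Of the selectin list 4 of 4 genes at 10 CPM or more, Sele, Selp, Cd34 and Podxl, lay past 2-fold higher, with a median log2 ratio of 3.40 beside -0.23 over all genes at that level.

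The partners of the family differed in this library as well. Of 5 integrin receptor genes at 10 CPM or more 3 lay past 2-fold higher, and Itga9 lower, with a median log2 ratio of 2.09. Itga4 stood at 112 CPM against 30.7 and 20.2 CPM, and the leukocyte chain genes Itgam and Itgb2 at 38.8 and 16.1 CPM against at most 0.701 CPM. The 2 polysialic acid enzymes parted, St8sia2 at 29.8 CPM against 73.6 and 77.1 CPM and St8sia4 at 100.2 CPM against 23.1 and 20.5 CPM. In the untreated fractions both had been higher where Ncam1 was higher.

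**Figure D4:**
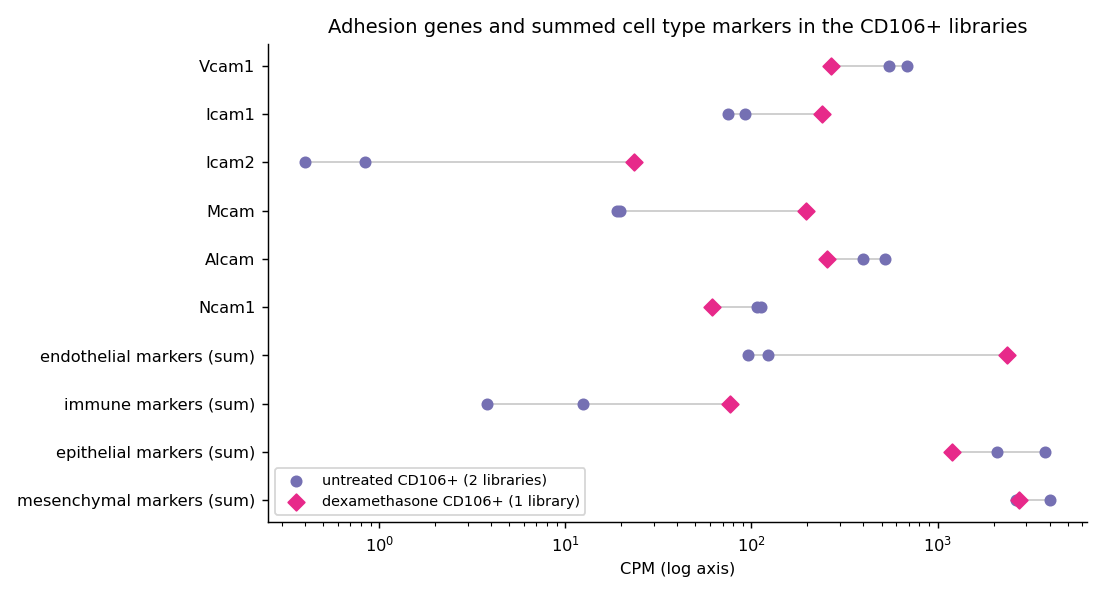
CPM (log axis) of the 6 genes and of 4 summed marker lists in the 3 CD106+ libraries, with circles for the 2 untreated libraries, a diamond for the treated library and a grey line over their span. Icam1, Icam2 and Mcam lie to the right in the treated library, as do endothelial markers at 2357 CPM and immune markers at 77.0 CPM, while Vcam1, Alcam, Ncam1 and epithelial markers lie to the left.

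Single cells showed which members occur in the same cell. No animal is named for the cells, so each treatment is 1 sample and the groups were compared without a test. Column names of all dexamethasone cells carry the prefix Bridges, and those of the saline cells do not. What that difference stands for is not stated, and it cannot be told apart from the treatment. Of 8804 genes at a mean of 10 CPM or more, 66.4% lay past 2-fold between the groups, 29.4% higher and 37.0% lower with dexamethasone, and 5 of the 6 members did. Saline cells were deeper, with median totals of 1349770 counts against 852850, and had more genes found, with medians of 5198 against 3508. They also held more endothelial marker counts, with medians of 985 against 4.18 CPM summed over 8 markers. Their epithelial marker counts were fewer, with medians of 68.6 against 234 CPM over 7. Most of the epithelial sum was Sftpc, with means of 1170 of 1251 CPM with dexamethasone and 143 of 147 CPM with saline. Sftpc was counted in all 15 dexamethasone and 11 saline cells, and Epcam in 0 of either. Mesenchymal markers summed to at least 682 CPM in every saline cell and 2688 CPM in every dexamethasone cell. The part of depth and of cell type in what follows was not tested, other than by the thinned and restricted values given beside it.

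Vcam1 was found in 14 of 15 dexamethasone and 7 of 11 saline cells, and in 13 and 7 after thinning every cell to the total of the shallowest. Its lowest, median and highest levels were 0, 367 and 3158 CPM in dexamethasone cells and 0, 89.0 and 1520 CPM in saline cells. Mean levels were 974.7 against 357 CPM (log2 ratio 1.45), with wide overlap. Leaving out the 6 cells with Pecam1 above 100 CPM gave a log2 ratio of 1.35, and leaving out the highest cell, a step added after seeing the data, gave 1.19.

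Alcam was found in 13 of 15 dexamethasone and 8 of 11 saline cells, and in 13 and 5 after thinning. Its lowest, median and highest levels were 0, 37.4 and 1946 CPM against 0, 4.47 and 319 CPM. The means of 249 and 67.3 CPM gave a log2 ratio of 1.87, which fell inside 2-fold without the highest cell (means of 128 and 67.3 CPM, log2 ratio 0.92).

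Icam2 marked the Pecam1-positive cells of both groups. It stood at 419.5 to 5682 CPM in the 5 saline cells with Pecam1 above 100 CPM and at 849 CPM in the 1 such dexamethasone cell. In the other 20 cells it reached at most 5.04 CPM with saline and 18.6 CPM with dexamethasone. The mean over all cells was 57.8 CPM with dexamethasone against 831 CPM with saline (log2 ratio -3.82), and without those 6 cells the ratio was -0.40. Without its highest cell, saline cell 1, the ratio was -2.56. ICAM2 is a known endothelial protein, and the limit of 100 CPM lay in a gap between Pecam1 levels of 37.3 and 175 CPM. The cells above that limit also held 5258 to 9617 CPM of mesenchymal markers. Saline cell 3, below the limit, held 985 CPM of endothelial markers with 2.41 CPM of Icam2.

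Mcam was found in 4 of 15 dexamethasone and 8 of 11 saline cells, and in 3 and 6 after thinning. Its highest levels were 46.4 and 184 CPM, and its means 4.14 and 50.3 CPM (log2 ratio -3.32, and -2.18 without the Pecam1-positive cells and -2.88 without the highest cell). Of the 3 cells at 100 CPM or more 2 were Pecam1-positive. The third, saline cell 2, held 15779 CPM of smooth muscle markers, a cell type in which MCAM is known. Saline cell 11 held more, 45981 CPM of these markers, with only 14.1 CPM of Mcam, and dexamethasone cell 3 held 6431 CPM of them with no Mcam count.

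Icam1 was found in 0 of 15 dexamethasone cells, which allows a share of cells with a count of up to 20.0% by counting error alone, and in 7 of 11 saline cells, or 4 after thinning. The limit takes the cells as independent, and covers neither differences between animals nor cells whose Icam1 went undetected. The pooled saline level was 16.4 CPM, with a 95% interval of 14.4 to 18.6 CPM by counting error alone. It was 71.9 times the 0.229 CPM that 3 counts over all dexamethasone cells would give. That ratio takes the saline value as measured and does not cover the spread between cells. Saline cell 7 alone made up 74.1% of the sum of saline levels, at 107 CPM. Without it the saline mean fell from 13.2 to 3.74 CPM and the pooled level to 3.98 CPM, 17.4 times the same 0.229 CPM. The next highest cell held 12.0 CPM, and the lowest positive cells 0.690 and 0.864 CPM.

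Ncam1 was found in 5 of 15 dexamethasone and 5 of 11 saline cells, with means of 14.6 and 15.8 CPM. The log2 ratio of -0.11 changed sign with pooled counts (0.27) and with thinned counts (0.31), and was -0.90 without the highest cell, so no direction was read. Its highest levels were 106.5 CPM with dexamethasone and 65.9 CPM with saline.

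**Figure D5:**
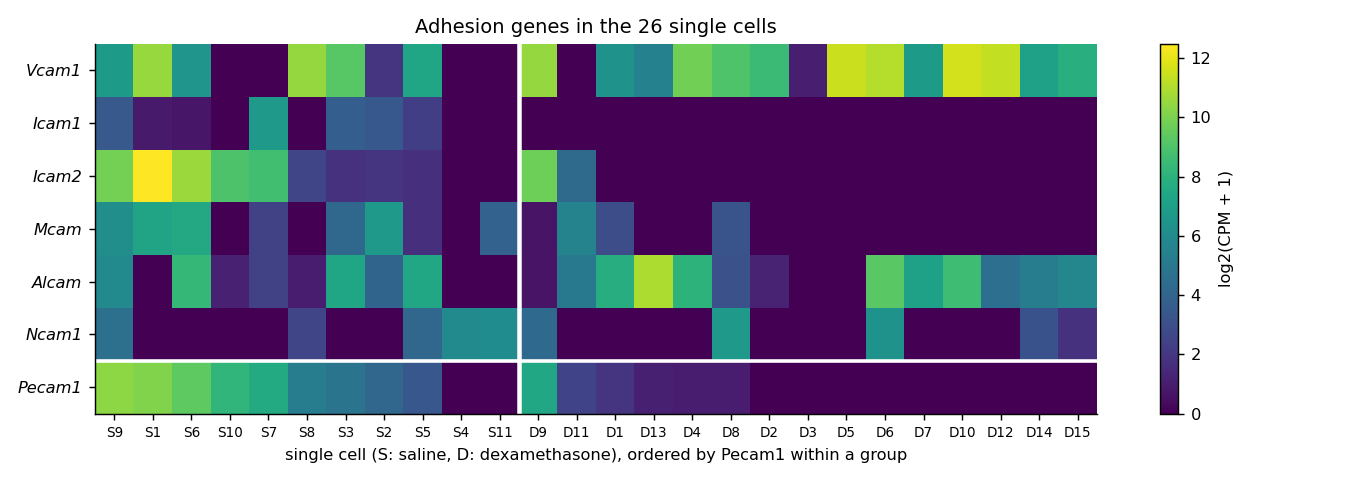
Log2(CPM + 1), by colour, of the 6 genes and Pecam1 in 11 saline cells (S, left of the white line) and 15 dexamethasone cells (D), each ordered by Pecam1, 1 column a cell. Icam2 is bright in the 6 cells where Pecam1 is, Icam1 is at 0 in every dexamethasone cell, and Vcam1 and Alcam run through cells of both groups.

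A cell held a median of 4 of the 6 members with saline, from 1 to 6, and of 2 with dexamethasone, from 1 to 5. Vcam1 and Alcam were met together most often, in 18 of 26 cells. Each was present in 21, more cells than any other member, so the shared count alone shows no link. At 100 CPM or more, 16 cells held Vcam1, 9 Alcam and 6 both. The 7 cells with Icam1, all saline, also held Icam2 and Mcam, which were found in 9 and 8 of the 11 saline cells. At 100 CPM or more only 1 cell held Icam1, with Icam2 and without Mcam. Vcam1 had medians of 89.0 CPM in the 5 Pecam1-positive saline cells and 81.5 CPM in the other 6. With dexamethasone it stood at 1433 CPM in the 1 Pecam1-positive cell and at a median of 299 CPM in the other 14.

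The genes most like each member were ranked by Pearson r of log2(CPM + 1) over the 11 bulk libraries, among 8778 genes, and r over the 26 cells is given beside it. The bulk libraries share tables and the CD106 sort, so these values are a description. Vcam1 was most like Col25a1, Frem1 and Unc5c (r = 0.99 each, and 0.40, 0.36 and 0.46 over cells). In the CD106- libraries, low in Vcam1 by the sort, these genes had means of 5.25, 23.4 and 8.90 CPM. Their means in the other groups were at least 145, 783 and 217 CPM. No r without the CD106- libraries was computed, here or for the pairs below. Ncam1 was most like Hoxa2, Runx1t1 and the collagen gene Col3a1 (0.97 each), none of which followed it over cells (-0.21, 0.041 and -0.13).

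Icam1 was most like Jun, which encodes a subunit of the transcription factor AP-1, and Lrrfip1 (0.98 and 0.97, and 0.37 and 0.36 over cells), with 2310007B03Rik between them. Icam2 was most like Neu1, Slc9a3r2 and Vwf, the gene of von Willebrand factor of endothelium (0.95, 0.93 and 0.93). That order rests on the treated CD106+ library, where Neu1 stood at 83.6 CPM and Vwf at 89.2 CPM against group means of at most 11.9 and 4.53 CPM elsewhere. Of these genes Slc9a3r2 had an r of 0.96 over cells and Vwf one of 0.10. Mcam was most like Dst, Nostrin and Itga4 (0.98, 0.98 and 0.97, and -0.11, 0.58 and 0.28 over cells), and Alcam most like Kif21a, Eps8 and Lin7c (0.97, 0.97 and 0.96, and -0.25, 0.061 and -0.32 over cells). Within the family, r over the bulk libraries was 0.93 for Vcam1 with Ncam1, -0.80 for Vcam1 with Alcam and -0.87 for Mcam with Alcam, and over cells 0.0057, 0.27 and 0.023.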

How the data were processed

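The data were 11 bulk RNA libraries and 26 single cells. The authors deposited expected counts per gene symbol, as their values show, since 5.35 to 9.21% of the values of a bulk library were not whole. The submitters' processing notes name mm10 as the build, and as tools Partek, TopHat2, Bowtie2, Trim Galore, HOMER and MACS2. How reads were counted, and whether by strand, is not given in the sources used here. The 6 members and all lists were chosen with earlier results of these data known.

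Expected counts were rounded, filtered with filterByExpr and scaled by TMM, and the 2 groups of each comparison were fitted alone with edgeR's quasi-likelihood test (robust, Benjamini-Hochberg over all genes tested, threshold 0.05; R 4.3.3, edgeR 4.0.16). The fits were also run on counts simulated from the means and spread of these same libraries. No difference in sex or cell makeup was built in, and no result here rests on that run. Means ± SD are CPM on TMM-scaled sizes, and values per library are CPM of the total. The treated CD106+ library and the cells were described by log2 ratios of CPM with a pseudocount of 1, with 2-fold at 10 CPM or more as the mark. The 11 cells of one group and 15 of the other were not clustered, and no doublet caller was run. A count of 0 allows up to 3 counts, which covers counting error only. Genes named are the members, up to 4 of each list past the threshold by smallest p, 3 genes most like each member at a mean of 10 CPM or more, and the markers. In mesenchyme St8sia2, Itgb1 and Ddx3y, and in the treated CD106+ library the partner genes, were named after their values were seen. Alternatives were other scalings, no filter, DESeq2 1.42.0, limma-voom (limma 3.58.1), the replicate number as a block, Xist as a covariate, removal of Rn45s, each library left out, the cell highest in each gene left out (added after seeing the data) and other pseudocounts. No replicate pair agreed within sampling noise (chi-square per degree of freedom 9.94 to 40.4). Of 26 cells 2 share an index code, a dexamethasone and a saline cell, and their values differ. Protein sequences were not used here.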

Additional observations from a re-analysis of the deposited data

Results flagged for a closer look

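Mcam and Alcam differed in opposite directions between dexamethasone and control libraries in mesenchyme and in CD106+ cells, a contrast that was not tested. Neither gene passed in mesenchyme (edgeR adjusted p = 0.349 for Mcam and 0.146 for Alcam), and the 1 treated CD106+ library allows no test of its own. Mcam had a log2 ratio of -0.56 in mesenchyme, every dexamethasone pool lying below both saline pools as a share of the total, and of 3.29 in the treated CD106+ library, which lay above both untreated ones. Alcam had a log2 ratio of 0.62 in mesenchyme, every dexamethasone pool lying above both saline pools, and of -0.84 in the treated CD106+ library, which lay below both but inside 2-fold. The Mcam pools overlap on TMM-scaled sizes, endothelial markers summed to 2357 CPM in the treated CD106+ library against 122 and 96.3 CPM, and their part was not tested. The single cells, given 2 mg/kg, were outside this comparison. Log2 ratios in the cells and in the treated CD106+ library had opposite signs for Vcam1 (1.45 and -1.21) and Alcam (1.87 and -0.84). So they did for Icam1 (-3.82 and 1.50), Icam2 (-3.82 and 3.92) and Mcam (-3.32 and 3.29). Ncam1 had -0.11 and -0.83. These differences were not tested. No library of the 6 sets of 4 dexamethasone pools looked at, 1 set for each gene, stood apart from the others.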

How the results depend on the processing

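In mesenchyme the number of genes changed was 306, and 598 with no filter, 512 with DESeq2, 154 with the replicate block and 186 with Xist as a covariate, and 179 to 335 with a pool left out. The number of members changed was 0 throughout these, except 1 with no filter (Ncam1, edgeR adjusted p = 0.042), and 0 to 0 with a pool left out. Vcam1 ran from -0.39 to 0.92 with a pool left out and Icam1 from -0.68 to 0.15, changing sign without saline pool 1 (-0.39 and 0.15) and, for Icam1, without dexamethasone pool 2 (0.023). Between CD106 fractions 546 to 2756 genes (1239 in all libraries) and 2 to 4 members changed with a library left out, the higher share running from 52.0 to 88.5%, and 1276 genes changed with the replicate block. The block also ended the calls of Itga4 in mesenchyme (adjusted p = 0.19) and of Alcam and Cdh1 between fractions (0.081 and 0.12). Mcam changed sign with column totals (0.025), limma-voom (0.0061), the replicate block (0.021) and libraries left out (-0.40 to 0.45), being 0.45 without CD106- library 2 and 0.068 without CD106+ library 2. Replicate numbers are tied to nothing in the labels, so the block is no pairing. With an untreated CD106+ library left out 4 to 5 members lay past 2-fold. In single cells Ncam1 changed sign with pooled (0.27) and thinned counts (0.31). The cause was not tested in any of these. The treated CD106+ library was set against the untreated ones in 5 other ways, among them an edgeR fit with both fractions. That fit assumes that the lone library varies like the others, so its p-values are not given. Log2 ratios ran from 3.06 to 3.50 for Mcam, from 2.34 to 5.30 for Icam2 and from 1.46 to 1.67 for Icam1. They ran from -1.21 to -1.05 for Vcam1, from -0.84 to -0.71 for Alcam and from -0.84 to -0.69 for Ncam1. Depth limits Icam2 in bulk (1 to 14 counts in 10 libraries) and Icam1 in mesenchyme.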
